A study of Mus musculus with 9 samples.

Results

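The heartbeat of a cardiomyocyte is driven by a calcium cycle, and 8 genes of that cycle were followed in mouse heart tissue after ischemia/reperfusion (I/R): Atp2a2, Pln, Sln, Ryr2, Casq2, Trdn, Slc8a1 and Cacna1c. They were taken by gene symbol from a table of read counts for 54532 genes, and all 8 were found. The 8 genes were chosen with earlier results of these data known. The table held hearts of wild-type C57BL/6J mice in 3 groups of 3. The mice were males 8 to 10 weeks old. Sham mice had a suture passed under the left anterior descending coronary artery but not tied. MIRI mice (myocardial ischemia/reperfusion injury) had the artery ligated for 30 min, followed by 24 h of reperfusion, and received saline. GXNI mice had the same operation and received Guanxinning injection, a plant-derived preparation, at 9 mL/kg into the tail vein within 10 min of ischemia. The model stops flow in a single coronary artery, so that a heart holds injured and uninjured muscle together.

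In each beat, calcium enters through the L-type channel of the surface membrane, whose pore is encoded by Cacna1c. This calcium opens the ryanodine receptor of the sarcoplasmic reticulum, encoded by Ryr2, which sits in a complex with triadin (Trdn) and the calcium-storing protein calsequestrin (Casq2). For relaxation, the pump SERCA2 (Atp2a2) returns calcium to the reticulum, and the small membrane proteins phospholamban (Pln) and sarcolipin (Sln) inhibit it. The sodium/calcium exchanger NCX1 (Slc8a1) expels calcium across the surface membrane and depends on the sodium gradient kept by the sodium pump. Lower SERCA2 and altered exchanger levels are well known from failing hearts.

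The libraries held 17119454 to 22811295 counts, of which 23% to 29.8% fell on mitochondrially encoded genes. Levels are given as CPM, the counts scaled to equal library totals, after TMM normalization, and 3 counts corresponded to 0.132 to 0.175 CPM. The labels call the samples heart and cardiomyocytes. The summed level of 8 cardiomyocyte markers was 35735 to 52727 CPM in every library, while 7 skeletal muscle markers together stayed between 1.68 and 5.49 CPM, with Myh4 at 0 in all libraries. Markers of endothelial cells (541 to 1015 CPM) and fibroblasts (615 to 1816 CPM) were also present in every library, as in whole tissue. In such bulk samples fewer cells of a type and less RNA per cell cannot be told apart.

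Under the deposited labels, the libraries of the operated mice did not separate by treatment. On the first principal component, which held 64.7% of the variance of 15207 genes, sham libraries lay between -59.8 and -52.2. The libraries labelled MIRI 2 (-44.4) and GXNI 1 (-43.5) lay near them. MIRI 1 (61.6), MIRI 3 (83.2) and GXNI 3 (94.4) lay at the other end, with GXNI 2 (18.7) between. By Spearman correlation, the library nearest to GXNI 3 was MIRI 3 (0.987) and the library nearest to MIRI 2 was GXNI 1 (0.982). The study's own fold change tables correspond to a grouping in which the libraries labelled MIRI 2 and GXNI 3 change places. In that grouping the first component held MIRI at 61.6, 83.2 and 94.4 and GXNI at -44.4, -43.5 and 18.7, with no overlap. Values below follow the deposited labels, and those with the 2 libraries exchanged, or with a doubted library left out, are given beside them. Which of these groupings is right was not tested. All 6 operated hearts against the 3 sham hearts (I/R against sham) is a comparison whose members are the same under either. Its main fit still measures spread within MIRI and within GXNI, so its p-values depend on the grouping.

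Promoter sequences of 5 of the 8 genes were matched in RefSeq (build GRCm38.p6), each from 250 bases before to 50 bases after the start site. Those of Pln and Ryr2, which were low in the same libraries, and of Casq2 and Slc8a1, which were not, are shown so that the windows can be read side by side. Capitals mark matches on either strand to 3 motifs bound by heart muscle transcription factors, the E-box CANNTG, the GATA motif GATAA and the MEF2 motif.
Pln (chr10:53337436-53337735, forward strand): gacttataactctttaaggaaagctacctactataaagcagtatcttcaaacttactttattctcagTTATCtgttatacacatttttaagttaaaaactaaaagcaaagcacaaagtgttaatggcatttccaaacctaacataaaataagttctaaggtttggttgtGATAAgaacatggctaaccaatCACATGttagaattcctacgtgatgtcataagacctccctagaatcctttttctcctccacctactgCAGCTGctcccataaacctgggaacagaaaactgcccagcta
Ryr2 (chr13:12106896-12107195, reverse strand): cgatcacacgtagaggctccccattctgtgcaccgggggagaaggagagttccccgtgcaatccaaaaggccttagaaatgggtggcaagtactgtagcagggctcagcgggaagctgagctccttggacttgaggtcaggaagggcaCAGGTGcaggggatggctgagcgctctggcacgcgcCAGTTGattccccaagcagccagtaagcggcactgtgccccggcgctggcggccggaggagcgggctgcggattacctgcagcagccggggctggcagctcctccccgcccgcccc
Casq2 (chr3:102086165-102086464, forward strand): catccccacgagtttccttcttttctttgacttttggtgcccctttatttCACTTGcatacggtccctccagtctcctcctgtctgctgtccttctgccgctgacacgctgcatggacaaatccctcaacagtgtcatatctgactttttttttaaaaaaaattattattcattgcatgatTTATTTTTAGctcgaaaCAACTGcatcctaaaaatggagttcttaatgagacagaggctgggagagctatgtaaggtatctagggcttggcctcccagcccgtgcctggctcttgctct
Slc8a1 (chr17:81738338-81738637, reverse strand): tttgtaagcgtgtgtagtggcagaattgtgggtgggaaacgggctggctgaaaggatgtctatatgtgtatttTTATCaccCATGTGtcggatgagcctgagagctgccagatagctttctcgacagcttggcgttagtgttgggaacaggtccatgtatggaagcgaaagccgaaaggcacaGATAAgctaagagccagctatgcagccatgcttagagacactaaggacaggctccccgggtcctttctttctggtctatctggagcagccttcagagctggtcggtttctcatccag
The Pln window held 2 E-box and 2 GATA matches and the Slc8a1 window 1 E-box and 2 GATA matches, of which none overlapped another. The Ryr2 window held 2 E-box matches and the Casq2 window 2 E-box matches and 1 MEF2 match. For the M-CAT motif CATTCC and the CArG motif, none of the 4 windows held a match. Of 32851 promoter windows of the same length, 72.3% held an E-box, 25.4% a GATA motif, 14.7% an M-CAT motif, 3.19% a MEF2 motif and 1.63% a CArG motif. For Cacna1c, whose gene has several start sites, 3 windows were matched. A match describes letters only.

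Atp2a2 (chromosome 5, 122453513 to 122502225, reverse strand, GRCm38) encodes the pump itself. It was the most abundant of the 8 genes and was lower in all 6 operated hearts than in any sham heart. The 3 sham libraries held 15214.5, 13722 and 13512.5 CPM. The MIRI libraries 1 to 3 held 6960.0, 12190.0 and 5100.2 CPM and the GXNI libraries 1 to 3 held 11698, 8508 and 5483 CPM. The level thus ranged from 36.0% of the sham mean in MIRI 3 to 86.2% in MIRI 2, and the GXNI range lay within the MIRI range. Among all 15207 genes tested, 8.46% had all 6 operated libraries below all 3 sham libraries and 8.4% had all 6 above. Atp2a2 and Cacna1c were the 2 members below, and 0 members lay above.

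Pln (chromosome 10, 53337667 to 53345987, forward strand) encodes the main inhibitor of the pump in the ventricle. Its level was 1417, 1668 and 1677 CPM in the sham libraries, 557, 1421 and 418 CPM in MIRI 1 to 3, and 1365, 652 and 399 CPM in GXNI 1 to 3. The libraries MIRI 2 and GXNI 1 lay at the lower edge of the sham range (89.5% and 86.0% of the sham mean). The other 4 operated libraries held between 25.1% and 41.1% of it. The exons of Pln overlap those of Cep85l and Gm47644 on the opposite strand, and those of Atp2a2 overlap Gm43361 on the opposite strand. A strand setting of the counting is not given in the sources used here, so reads of such partners cannot be told apart.

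Sln, the inhibitor of the pump that is typical of atrial and slow skeletal muscle, was near absent (chromosome 9, 53850164 to 53854560, forward strand). It was counted 30 times in all 9 libraries together. Of these counts, 23 came from MIRI 2 and 5 from sham 2, while each of the other 7 libraries had at most 1. The light chain gene Myl7, an atrial marker, was also highest in MIRI 2, at 1.78 CPM against at most 0.75 CPM elsewhere. Sln did not pass the filter on low counts and was left out of the main tests.

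Ryr2 (chromosome 13, 11553102 to 12106945, reverse strand) encodes the release channel, with 28.8 kb of exons. The sham libraries held 1420, 1332 and 1346 CPM. MIRI 1 to 3 held 837, 1577 and 764 CPM, and GXNI 1 to 3 held 1351, 1220 and 696 CPM. MIRI 2 was above every sham library, and MIRI 1, MIRI 3 and GXNI 3 were at 51.0% to 61.3% of the sham mean.

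Trdn (chromosome 10, 33080554 to 33476709, forward strand), whose product anchors calsequestrin to the channel, followed a like order. Its level was 305 to 320 CPM in sham, then 189, 341 and 176 CPM in MIRI 1 to 3 and 331, 229 and 157 CPM in GXNI 1 to 3. MIRI 2 and GXNI 1 were above all sham libraries, and the lowest values were those of MIRI 1, MIRI 3 and GXNI 3.

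Casq2 (chromosome 3, 102086415 to 102146514, forward strand) encodes the calcium store of the release complex and had the narrowest range, relative to its level, of the 7 genes tested. Sham libraries held 562, 699 and 628 CPM. The level was 507, 754 and 540 CPM in MIRI 1 to 3 and 494, 444 and 509 CPM in GXNI 1 to 3. The 3 GXNI libraries were all below the sham libraries, whereas those of MIRI lay on both sides of them. How many of all genes had such a separation of 3 and 3 libraries was not counted. MIRI 3, with 36.0% of the sham mean for Atp2a2, kept 85.7% of it for Casq2.

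Cacna1c (chromosome 6, 118587240 to 119196418, reverse strand) encodes the pore of the L-type channel. Sham libraries held 339, 301 and 312 CPM. The level was 150, 254 and 95.5 CPM in MIRI 1 to 3 and 299, 232 and 100.3 CPM in GXNI 1 to 3. All 6 operated libraries were below the lowest sham library, GXNI 1 by a small margin, and the lowest held 30.1% of the sham mean.

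Slc8a1 (chromosome 17, 81373105 to 81738377, reverse strand), the exchanger gene, was the only tested member whose level was mostly above sham. Sham libraries held 133, 120 and 101 CPM. MIRI 1 to 3 held 188, 230 and 137 CPM and GXNI 1 to 3 held 106, 169 and 217 CPM. All 3 MIRI libraries were above all sham libraries, and GXNI 1 was within the sham range. The share of all genes with all 3 MIRI libraries above sham was not counted. Its highest level, 195% of the sham mean, was in MIRI 2, a library in which the other 6 tested members held 80.0% to 120% of it. Exons of Slc8a1 overlap AC122399.1 and Gm11096 on the opposite strand.

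**Figure D1:**
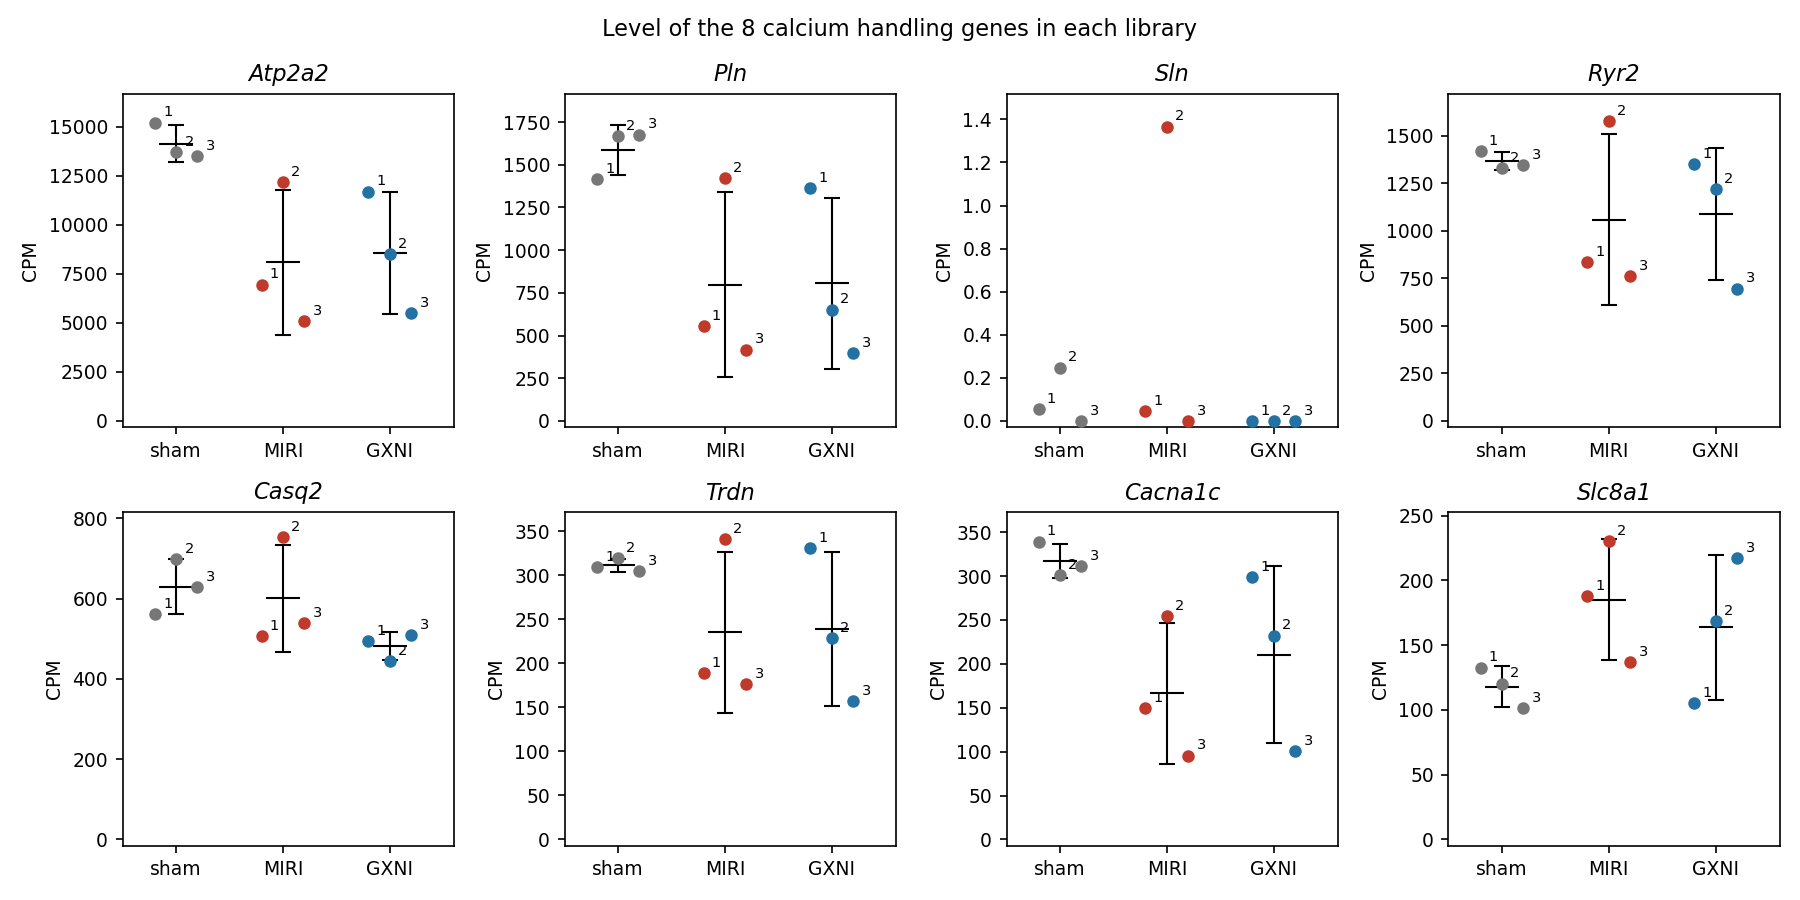
Level in CPM (vertical axes, starting at 0) of the 8 genes in the 9 libraries, with the replicate number beside each point. Short horizontal lines and bars are the mean and SD of 3 mice, left out for Sln. For Atp2a2, Pln, Ryr2, Trdn and Cacna1c the 3 lowest points are MIRI 1, MIRI 3 and GXNI 3, while the Slc8a1 points of MIRI lie above sham.

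In 5 of the 7 tested members (Atp2a2, Pln, Ryr2, Trdn and Cacna1c) the 3 lowest of the 9 libraries were MIRI 1, MIRI 3 and GXNI 3, and in 0 members were these the 3 highest. Over all genes tested, these 3 libraries were the lowest in 19.7% and the highest in 20.4%. Of the 8 cardiomyocyte markers, they were the lowest in 4 (Myh6, Tnni3, Myl2 and Myl3) and the highest in 0, so the pattern was not particular to calcium genes. These 3 libraries were picked with the values in view, so the counts are a description.

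To set different genes side by side, levels were divided by kilobases of exon, taken over all annotated transcripts of a gene (21.2 kb for Cacna1c, 18.8 kb for Slc8a1). Which transcripts the hearts held was not measured, so the order of genes rests on these lengths. Per kilobase, the order in sham hearts was Atp2a2 (2327 ± 153 CPM per kb, SD, n = 3), Pln (575 ± 53.4), Casq2 (230 ± 25.0), Ryr2 (47.4 ± 1.64), Trdn (33.3 ± 0.80), Cacna1c (14.98 ± 0.92) and Slc8a1 (6.28 ± 0.84). No neighbours in this order overlapped among the sham libraries. Casq2 stood above Ryr2, Ryr2 above Trdn and Trdn above Cacna1c in each of the 9 libraries. Pln stood above Casq2 in 7 libraries, but in MIRI 3 it was at 151 against 197 CPM per kb and in GXNI 3 at 144 against 186 CPM per kb. The channel and the exchanger also changed places. Slc8a1 stood above Cacna1c in 4 libraries, with 11.6 against 4.73 CPM per kb in GXNI 3, 10.003 against 7.07 in MIRI 1 and 7.27 against 4.51 in MIRI 3. In MIRI 2 these levels were 12.25 and 11.99 CPM per kb.

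In the comparison of all 6 I/R hearts with sham, the pump genes had the lowest fold changes and the exchanger the highest. Genes were counted as called where edgeR's quasi-likelihood test gave a fold of 1.5 or more and an unadjusted p of 0.01 or less. By this rule 0 of the 7 tested members were called, against 4.09% of all genes called higher and 2.5% called lower. The log2 fold change was -0.77 for Atp2a2 (standard error 0.31, adjusted p = 0.167), -0.98 for Pln (0.44, adjusted p = 0.194) and -0.76 for Cacna1c (0.36, adjusted p = 0.209). That of Slc8a1 was 0.56 (0.25, adjusted p = 0.190). For Ryr2 (-0.35), Trdn (-0.39) and Casq2 (-0.23) the 95% intervals reached well across 0, from -0.97 to 0.28 for Ryr2. The median log2 fold change was -0.39 over the 7 members and 0.00195 over all genes tested. Adjustment of p was by Benjamini-Hochberg over all genes tested.

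The fit of I/R against sham set the mean of MIRI and GXNI against sham, with spread measured within the 3 groups. With MIRI and GXNI pooled as 1 group, 0 members were called, beside 840 higher and 434 lower calls over 15207 genes. The quasi-likelihood test then gave an adjusted p of 0.125 for Atp2a2, 0.152 for Pln and 0.181 for Cacna1c. Exchanging MIRI 2 and GXNI 3 leaves the 6 and 3 libraries compared as they were but changes the spread within groups. With the exchange, the calls over all genes went to 10.9% higher and 8.42% lower, and 3 members were called lower. These were Atp2a2 (-0.83, standard error 0.15, adjusted p = 0.00398), Pln (-1.13, 0.22, adjusted p = 0.00544) and Cacna1c (-0.87, 0.15, adjusted p = 0.00334). Without the library labelled MIRI 2, Atp2a2 (-0.98) and Pln (-1.34) were called lower, beside 6.29% of all genes. Without GXNI 1, only Slc8a1 (0.68) was called, higher in I/R, beside 7.87% of all genes called higher.

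In MIRI against sham hearts, which asks what the injury alone changed, Pln and Cacna1c had the lowest fold changes and Slc8a1 the highest. Under the labels 0 of 7 members were called, with 6.15% of all genes called higher and 2.82% lower. Cacna1c was at -0.93 (standard error 0.33, adjusted p = 0.134), Pln at -0.99 (0.44, adjusted p = 0.191), Atp2a2 at -0.81 (0.34, adjusted p = 0.179) and Slc8a1 at 0.65 (0.21, adjusted p = 0.121), each on the log2 scale. Ryr2 was at -0.36, Trdn at -0.40 and Casq2 at -0.07. With DESeq2, Slc8a1 was called higher and Cacna1c lower, beside 5.34% and 2.72% of all genes, and with no filter on low counts likewise, beside 5.75% and 2.88%. Slc8a1 was also called higher without MIRI 3 (0.82), beside 3.19% of all genes.

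Without MIRI 2, 5 members were called lower in MIRI, beside 13.3% of all genes. Pln was at -1.70 (standard error 0.16), Cacna1c at -1.37 (0.19), Atp2a2 at -1.23 (0.15), and Trdn and Ryr2 both at -0.77 (0.10 each). With MIRI 2 and GXNI 3 exchanged the same 5 genes were called lower, beside 16.6% of all genes, and Slc8a1 was called higher (0.61, standard error 0.18, adjusted p = 0.0184), beside 19.2% of all genes. Pln then had a log2 fold change of -1.79 (0.14, adjusted p = 4.88e-05). Casq2 was called in neither fit, with values of -0.26 (95% interval -0.55 to 0.03) and -0.28 (-0.51 to -0.05).

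GXNI against MIRI hearts asks what the treatment changed, and it shares its MIRI libraries with the comparison above. Under the labels 0 of 7 members were called, in a comparison where 0% of all genes were called higher and 0.0203% lower, with 47 genes at an unadjusted p under 0.05. With DESeq2 0 members were called as well. The log2 fold change was 0.09 for Atp2a2 (95% interval -0.96 to 1.13), 0.02 for Pln (-1.44 to 1.48), 0.05 for Ryr2 (-0.87 to 0.96), 0.03 for Trdn (-0.86 to 0.92) and 0.35 for Cacna1c (-0.84 to 1.53). Casq2 (-0.31) had an interval of -0.82 to 0.20 and Slc8a1 (-0.17) of -0.93 to 0.59. These intervals hold changes of 1.5-fold in either direction for 6 of the 7 genes, so that differences of that size were not excluded for them.

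With MIRI 2 and GXNI 3 exchanged, 5 members were called higher in GXNI than in MIRI hearts, beside 8.56% of all genes called higher and 10.7% called lower. Pln was at 1.33 (standard error 0.30, adjusted p = 0.0225), Cacna1c at 1.19 (0.20, adjusted p = 0.0150), Atp2a2 at 0.89 (0.22, adjusted p = 0.0260), Ryr2 at 0.86 (0.16, adjusted p = 0.0163) and Trdn at 0.80 (0.18, adjusted p = 0.0221). Slc8a1 (-0.09, 95% interval -0.76 to 0.57) and Casq2 (0.13, -0.34 to 0.60) were not called. With all libraries kept, the group given to MIRI 2 and GXNI 3 decided whether any member was called between GXNI and MIRI. With both left out only Cacna1c was called, at 1.13, beside 1.52% of all genes called higher. Pln was then at 1.061 (lower 95% bound 0.12), Atp2a2 at 0.76 (0.07), Ryr2 at 0.69 (0.22) and Trdn at 0.63 (0.06), each with an unadjusted p above 0.01.

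In GXNI against sham hearts 0 of 7 members were called under the labels, beside 2.67% of all genes called higher and 1.54% lower. Atp2a2 was at -0.72 (standard error 0.27, adjusted p = 0.231), Pln at -0.97 (0.42, adjusted p = 0.254), Casq2 at -0.38 (0.14, adjusted p = 0.229) and Slc8a1 at 0.48 (0.27, adjusted p = 0.330). Without GXNI 1, the library nearest to sham, Atp2a2 (-1.01), Pln (-1.58) and Trdn (-0.68) were called lower beside 7.08% of all genes, and Slc8a1 (0.72) was called higher beside 10.7%. After the exchange of MIRI 2 and GXNI 3, 0 members were called, beside 315 higher and 228 lower calls over 14599 genes. Atp2a2 was then at -0.39, Pln at -0.47 and Slc8a1 at 0.51. The median over the 7 members was -0.16 after the exchange, against -0.38 under the labels.

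**Figure D2:**
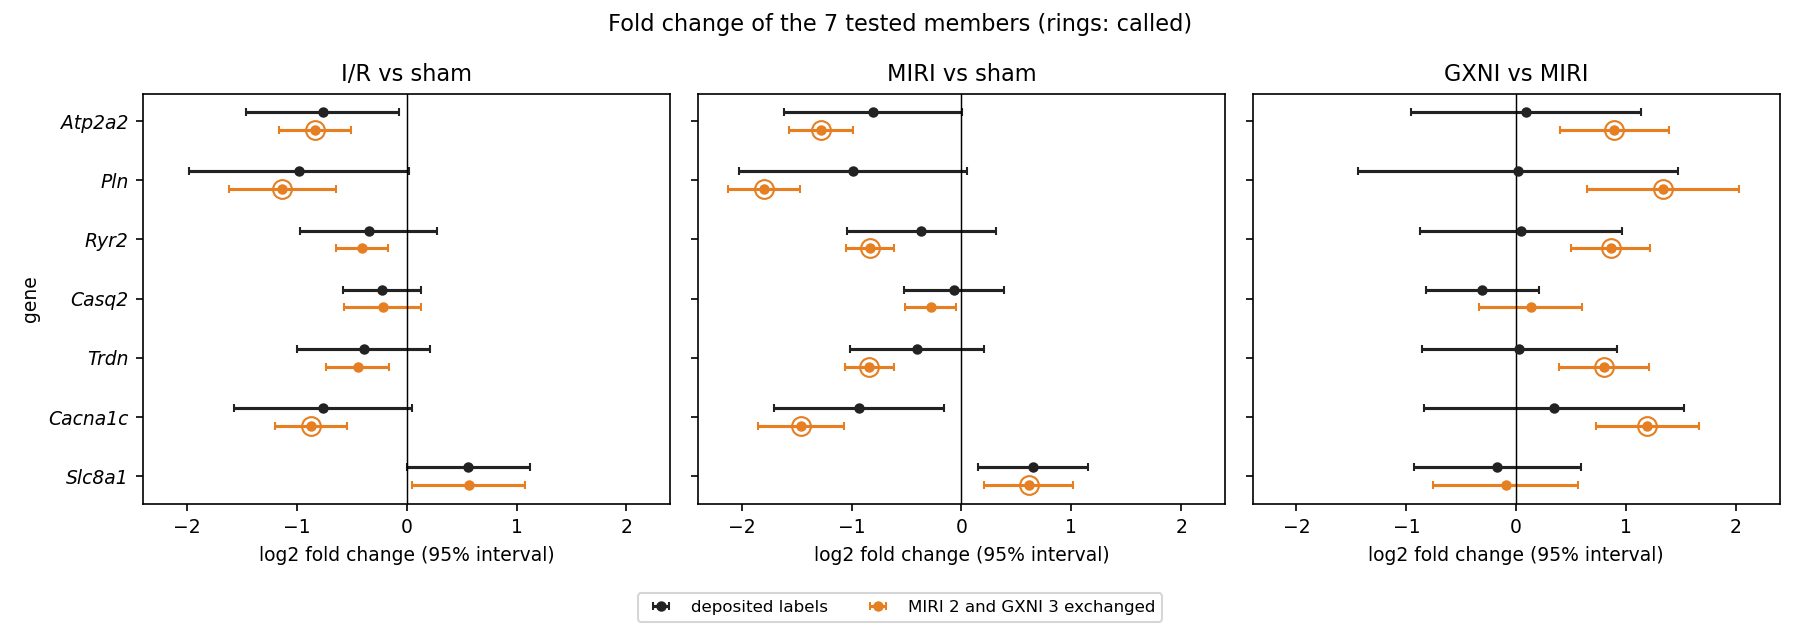
Log2 fold change (horizontal axes) with its 95% interval for the 7 tested genes in 3 comparisons, by deposited labels (black) and with MIRI 2 and GXNI 3 exchanged (orange). Rings mark called genes, of which there are 0 under the labels and 3, 6 and 5 in the 3 panels after the exchange.

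Ratios taken within a library do not depend on its scaling. The amount of the inhibitor Pln relative to its pump Atp2a2 had a mean log2 ratio of -3.16 ± 0.23 (SD, n = 3) in sham, -3.45 ± 0.30 in MIRI and -3.53 ± 0.37 in GXNI hearts. The ratio was -3.64 and -3.61 in MIRI 1 and MIRI 3, and -3.71 and -3.78 in GXNI 2 and GXNI 3. The other 2 operated libraries, both at -3.10, lay among the sham values of -3.42 to -3.01. The I/R hearts differed from sham by -0.33 (two-sided exact permutation test, n = 6 and 3, p = 0.143, adjusted over 9 tests p = 0.257). Between GXNI and MIRI hearts the difference was -0.08 under the labels (exact permutation p = 0.6, n = 3 and 3) and 0.38 with MIRI 2 and GXNI 3 exchanged (exact permutation p = 0.3, n = 3 and 3).

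The exchanger relative to the pump, 2 of the routes by which calcium leaves the cytosol, moved furthest. The log2 ratio of Slc8a1 to Atp2a2 was -6.84, -6.83 and -7.06 in the sham libraries. It was -5.21, -5.73 and -5.22 in MIRI 1 to 3 and -6.79, -5.66 and -4.66 in GXNI 1 to 3. All 6 operated libraries lay above all sham libraries, GXNI 1 by less than the range within sham. The mean was 2.58-fold higher in I/R than in sham hearts (two-sided exact permutation test, n = 6 and 3, p = 0.0238, adjusted over 9 tests p = 0.214), where the smallest p this design allows is 0.0119. MIRI against sham gave 2.88-fold with p = 0.1 in the exact test, the smallest that 3 against 3 mice allow. Between GXNI and MIRI hearts the ratio differed by -0.32 on the log2 scale (exact permutation p = 0.8, n = 3 and 3). It differed by -1.03 with MIRI 2 and GXNI 3 exchanged, with no overlap of the groups (exact permutation p = 0.1, n = 3 and 3).

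**Figure D3:**
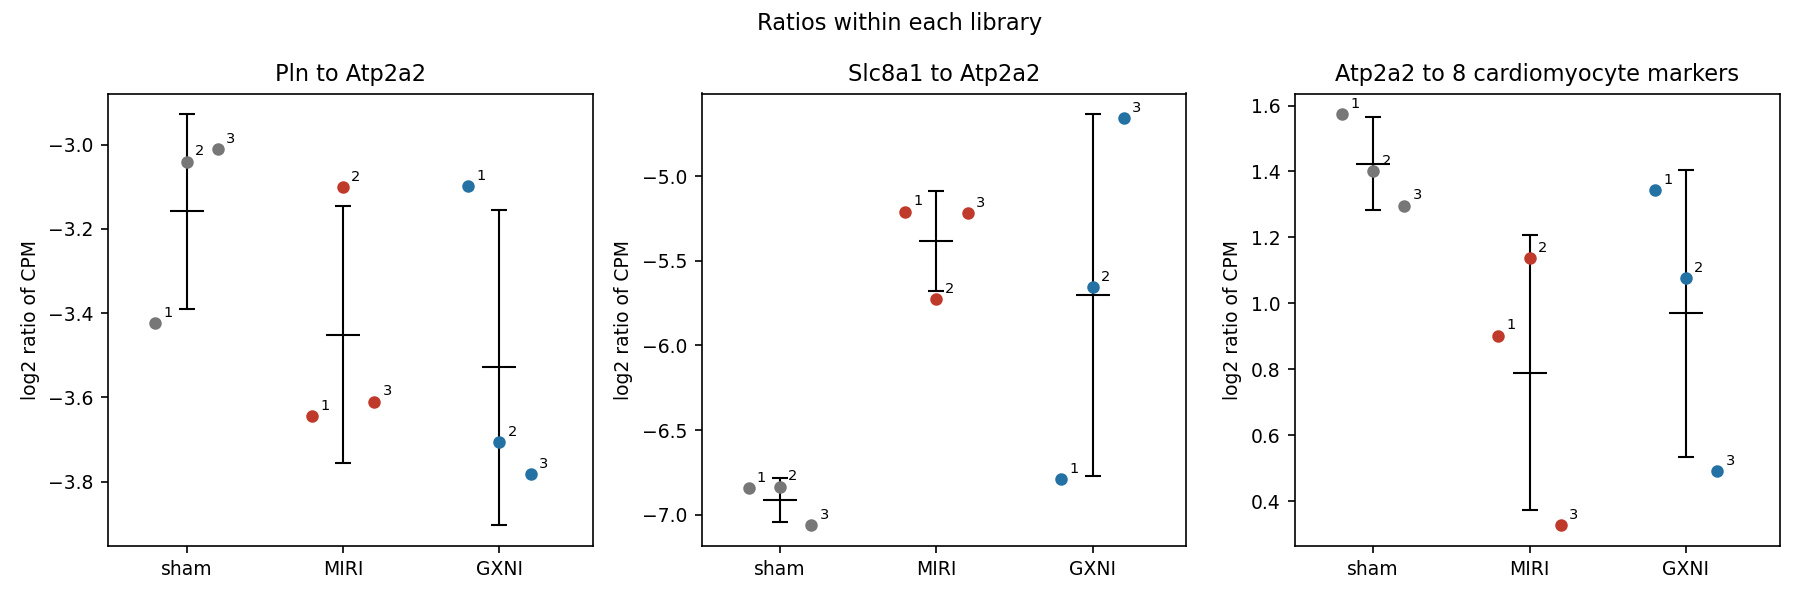
Log2 ratio of CPM (vertical axes, each with its own range) of Pln to Atp2a2, Slc8a1 to Atp2a2 and Atp2a2 to the mean of 8 cardiomyocyte markers in the 9 libraries, with replicate numbers and the mean and SD of 3 mice. The Slc8a1 to Atp2a2 ratio lies between -7.06 and -6.83 in sham and is lowest among the operated hearts in GXNI 1, at -6.79.

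Atp2a2 was set beside 8 other genes of cardiomyocytes (Myh6, Tnnt2, Tnni3, Actc1, Myl2, Myl3, Mybpc3 and Tpm1, which encode contractile proteins), whose levels also moved. Their summed level was 47796 to 50782 CPM in sham, 35735 to 52727 CPM in MIRI and 36438 to 44394 CPM in GXNI hearts. In I/R against sham 1 of the 8, Mybpc3, was called lower (-0.84, standard error 0.19), beside 2.5% of all genes. The 8 had a median log2 fold change of -0.31. Relative to their mean log2 level, Atp2a2 differed by -0.54 between I/R and sham hearts (two-sided exact permutation test, n = 6 and 3, p = 0.0595, adjusted over 9 tests p = 0.225) and by 0.18 between GXNI and MIRI hearts (exact permutation p = 0.6, n = 3 and 3). The latter was 0.61 with MIRI 2 and GXNI 3 exchanged, with no overlap of the groups (exact permutation p = 0.1, n = 3 and 3). The same difference between I/R and sham, given with no test, was -0.88 for Pln, -0.59 for Cacna1c, -0.16 for Trdn, -0.11 for Ryr2, 0.07 for Casq2 and 0.82 for Slc8a1. These are differences from the mean of the 8 genes, among which the log2 fold change in I/R against sham ran from -0.84 for Mybpc3 to 0.50 for Actc1.

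In MIRI 1, MIRI 3 and GXNI 3, where 5 calcium genes were lowest, neutrophil markers had their highest sums and fibroblast markers their lowest. The 6 neutrophil markers summed to 28.4 to 53.1 CPM in sham, to 641, 25.7 and 544 CPM in MIRI 1 to 3 and to 46.8, 197 and 573 CPM in GXNI 1 to 3. Of the 6, 0 were called in I/R against sham under the labels, beside 4.09% of all genes called higher. Their median log2 fold change was 2.79. With MIRI 2 and GXNI 3 exchanged, 5 of the 6 were called higher, beside 10.9% of all genes. The sum of 6 fibroblast markers was 1063 to 1311 CPM in sham and lowest in MIRI 1 (816 CPM), MIRI 3 (848 CPM) and GXNI 3 (615 CPM), while GXNI 1 held 1816 CPM. Pdgfra, a fibroblast marker of the list, went the other way. It was 46.8 to 57.8 CPM in sham and 62.5, 73.7 and 69.0 CPM in MIRI 1, MIRI 3 and GXNI 3. The sum of 6 macrophage markers (337 to 609 CPM) overlapped between the groups. The sum of 4 smooth muscle markers was 127 to 182 CPM in sham, 194 to 249 CPM in MIRI and 103 to 215 CPM in GXNI hearts, and was led by Acta2. Another marker of that list, Myh11, lay on the other side, at 57.2 to 75.4 CPM in sham and 20.2 to 54.7 CPM in MIRI hearts. The 6 adipocyte markers reached 8.19 CPM in MIRI 2 and at most 1.55 CPM elsewhere. The atrial list was led by Nppa, a stress-induced natriuretic peptide, and summed to 40.1 to 83.97 CPM in sham, 170 to 667 CPM in MIRI and 55.9 to 729 CPM in GXNI hearts. The part of these cells in the levels of the calcium genes was not tested.

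The sodium pump, which sets the gradient that drives the exchanger, is described here by 6 genes, for its beta subunits (Atp1b1, Atp1b2, Atp1b3), which bring the pump to the surface membrane, and its small regulators (Fxyd1, Fxyd5, Fxyd6). The exons of Atp1b1 overlap Nme7 on the opposite strand and those of Fxyd5 overlap Mir7050 on the same strand.

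Of these 6 genes, 0 were called in any of the 4 comparisons under the labels. The shares of all genes called were 4.09% higher and 2.5% lower in I/R against sham, and 6.15% and 2.82% in MIRI against sham. They were 0% and 0.0203% in GXNI against MIRI, and 2.67% and 1.54% in GXNI against sham. Fxyd5, the regulator also known as dysadherin, was 23.5 to 29.1 CPM in sham, 85.7, 28.8 and 123 CPM in MIRI 1 to 3 and 31.6, 64.0 and 123 CPM in GXNI 1 to 3, with a log2 fold change of 1.54 in I/R against sham (standard error 0.52, adjusted p = 0.140). Atp1b3 was 52.7 to 54.6 CPM in sham and reached 111 and 112 CPM in MIRI 3 and GXNI 3 (0.62, 0.25, adjusted p = 0.173). Atp1b2, a beta subunit of low level, was 19.0 to 23.7 CPM in sham and 6.10 CPM at its lowest (-0.68, 0.40, adjusted p = 0.287). Atp1b1 (0.27), Fxyd1, the phospholemman gene (-0.22), and Fxyd6 (-0.32) had intervals across 0. With MIRI 2 and GXNI 3 exchanged, Atp1b3 and Fxyd5 were called higher and Atp1b2 lower in MIRI against sham, beside the 19.2% and 16.6% of all genes. GXNI against MIRI then had Atp1b2 (1.29) called higher, and Atp1b3 (-0.75) and Fxyd5 (-1.40) lower, beside 8.56% and 10.7% of all genes.

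**Figure D4:**
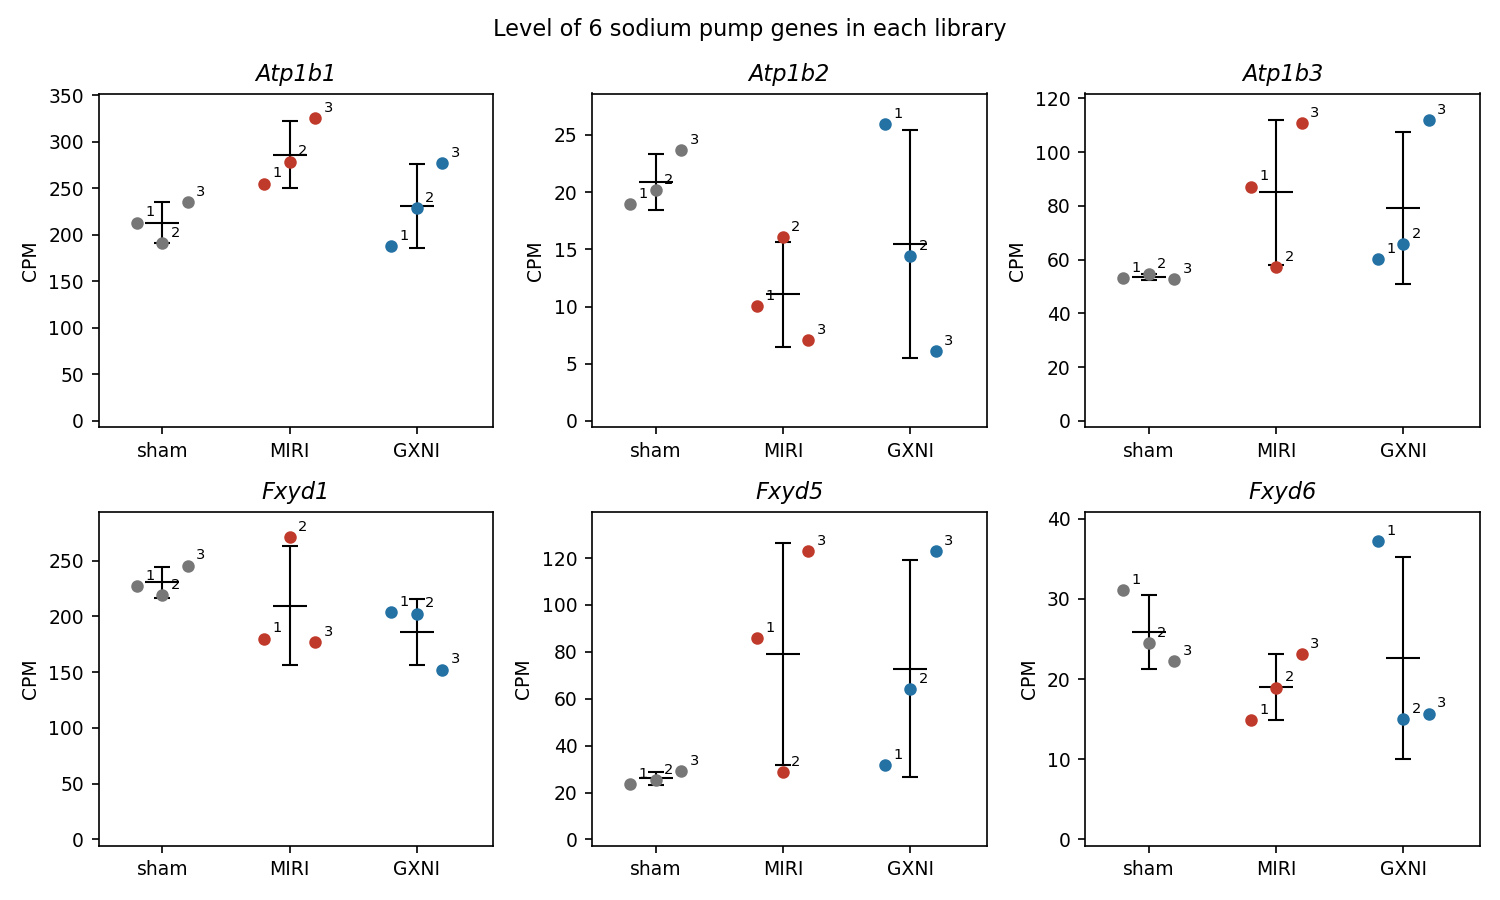
Level in CPM (vertical axes, starting at 0) of 6 sodium pump genes in the 9 libraries, with replicate numbers and the mean and SD of 3 mice. Fxyd5 is near sham in MIRI 2 and GXNI 1 and highest in MIRI 3 and GXNI 3.

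The other genes of the calcium cycle were sorted into 6 lists, and few were called under the labels. In I/R against sham, the shares of all genes called were 4.09% higher and 2.5% lower. Among the genes around calcium release, Calm2 (0.77, standard error 0.23, adjusted p = 0.129), a gene for the calcium sensor calmodulin, was called higher in I/R against sham. Calm2 was 51.8 to 81.7 CPM in sham and 84.5 to 149 CPM in the operated hearts, with no overlap. Of all genes tested, 8.4% had all 6 operated libraries above sham. Of 16 tested genes of calcium channels and their partners, Bin1, which shapes the T-tubules where the L-type channel sits, was called higher (0.92, 0.27, adjusted p = 0.128), from 7.89 to 10.6 CPM in sham to 11.4 to 25.9 CPM in the operated hearts. Calm2 and Bin1 were called higher in I/R against sham after the exchange too. In MIRI against sham, Calm2 and Gem were called higher and Cacna1s lower, beside 6.15% and 2.82% of all genes. Gem and Cacna1s were named here after their values were seen.

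The remaining 4 lists had 0 genes called in I/R against sham under the labels. The first held 11 tested genes for other reticulum pumps and for pump regulators (median log2 fold change -0.12). The others were 4 other transporters of the surface membrane (0.12), 6 genes of store-operated entry (-0.04) and 9 genes of mitochondrial calcium uptake (-0.05). In GXNI against MIRI 0 genes of any of the 6 lists were called. After the exchange, the list of other pumps and pump regulators and the list of channel partners had 2 genes lower each in I/R against sham. The share of all genes called lower was 8.42%. Higher were 3 of 16 genes around calcium release, 2 of 16 channel genes and 1 of 9 mitochondrial genes, beside 10.9% of all genes. Among the genes called lower, Hrc, which encodes a calcium-binding protein of the reticulum, was at -0.72 (standard error 0.16). Camk2a, a calmodulin-dependent kinase gene, was at -1.34 (0.18), and both were named after their values were seen.

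The genes whose level followed each member most closely were found by Pearson correlation of log2 CPM over the 9 libraries, among 8694 genes with a mean of at least 10 CPM. The libraries share the differences in depth and tissue given above, and the values are a description. For Atp2a2 these were Calcoco1, Clasp2 and March6 (0.996 to 0.994), and for Pln Polr3gl, 5730455P16Rik and Tnni3 (0.997 to 0.992), the last encoding cardiac troponin I. Ryr2 was followed by Ivd, Macrod1 and Crat (0.997 to 0.992) and Trdn by Aldh5a1, Pccb and Kcnj3 (0.995). Of these, Ivd, Crat, Aldh5a1 and Pccb encode mitochondrial enzymes. Cacna1c was followed by Pigo, Zfp839 and Mtg1 (0.992 to 0.990). The best values were lower for Casq2, with Nap1l4, Gm28437 and Cstf2t (0.949 to 0.921), and for Slc8a1, with Slc35f5, Med14 and Trip11 (0.935 to 0.919).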

How the data were processed

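RNA of 9 mouse hearts was sequenced (3 sham, 3 MIRI and 3 GXNI mice). The authors aligned reads with HISAT2 and counted them per gene with featureCounts, and the labels name build mm10 with no versions. The deposited values are whole-number counts, not normalized, and 0 columns of other samples were used. Symbols were paired with 54409 of 54532 identifiers (GENCODE M21, GRCm38). The 8 genes and all gene lists were chosen with earlier results of these data known.

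Each comparison was fitted over all genes with edgeR 4.0.16 in R 4.3.3 (TMM, the default filter on low counts, quasi-likelihood F test), with all 9 libraries for I/R against sham and the 6 libraries concerned for the others. For I/R against sham the fit had 3 groups, and the mean of MIRI and GXNI was set against sham. The standard error is the log2 fold change divided by the square root of F. CPM use TMM factors over 9 libraries, and ratios a prior count of 0.5. Groups follow the deposited labels, and p-values measure the spread between these mice. Named genes were the 8 members, sodium pump genes, up to 3 called genes per other list in I/R against sham, and the 3 genes most correlated with each member. Some genes of these lists are not reported here. Alternatives were DESeq2 1.42.0, RLE normalization, no filter, mitochondrial genes left out, 1 joint fit, a replicate block, adjusted p, prior counts and marker medians. Each replicate was also left out, and MIRI 2 and GXNI 3 were exchanged or left out. The joint fit took all 9 libraries, and for I/R against sham it pooled MIRI and GXNI as 1 group. The fit was tested on simulated data. No 2 libraries of the same group were alike within sampling noise. Libraries of different groups were not compared in this way. The study's fold change tables were used only to find which grouping of the libraries they correspond to.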

Additional observations from a re-analysis of the deposited data

How the results depend on the processing

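Of the settings tried for the member calls, RLE normalization, leaving out mitochondrial genes, 1 joint fit, an adjusted p of at most 0.05 and the replicate block gave 0 called members in all 4 comparisons. For I/R against sham, the joint fit pooled MIRI and GXNI as 1 group. Same-numbered mice of different groups did not deviate together in every pair (correlations of -0.44 to 0.70 between MIRI and GXNI), so the numbers were not taken as pairs. With DESeq2 or no filter, MIRI against sham gave 1 member higher and 1 lower. With MIRI 2 and GXNI 3 exchanged, 3 members were lower in I/R against sham, in MIRI against sham 1 was higher and 5 were lower, and in GXNI against MIRI 5 were higher. The shares of all genes called were then 8.42%, 19.2%, 16.6% and 8.56%, in the same order. With both left out the counts were 3 lower, 5 lower and 1 higher. Over all genes, the calls were then 1088 lower of 15503, 2021 lower of 15207 and 228 higher of 14984. Leaving out 1 replicate gave 0 to 1 higher and 0 to 2 lower members in I/R against sham, 0 to 1 higher and 0 to 5 lower in MIRI against sham, 0 in either direction in GXNI against MIRI, and 0 to 1 higher and 0 to 3 lower in GXNI against sham.

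The log2 ratio of Pln to Atp2a2 between GXNI and MIRI, -0.08 under the labels, became 0.38 with the exchange and 0.22 with both libraries left out, and was -0.29 to 0.10 with 1 replicate left out. That of Slc8a1 to Atp2a2 in I/R against sham was 1.19 with both left out (exact p = 0.0571) and 1.19 to 1.62 with 1 replicate left out. Between GXNI and MIRI it was -0.84 to 0.23. Atp2a2 relative to cardiomyocyte markers was -0.64 to -0.43 in I/R against sham and -0.051 to 0.42 in GXNI against MIRI. For single genes, Casq2 in GXNI against MIRI became 0.13 and Ryr2 in GXNI against sham 0.020 with the exchange. With 1 replicate left out, Casq2 in MIRI against sham was -0.26 to 0.043. GXNI against MIRI was -0.21 to 0.52 for Atp2a2, -0.61 to 0.74 for Pln, -0.15 to 0.46 for Ryr2, -0.28 to 0.40 for Trdn, -0.43 to 0.060 for Slc8a1 and -0.0017 to 0.79 for Cacna1c, so that the sign of each rested on 1 library. The cause of these changes was not tested. Over all genes, I/R against sham had 622 higher and 380 lower calls, and 1343 and 601 with DESeq2, 1209 and 684 with no filter, and 1448 and 985 without MIRI 2. MIRI against sham had 900 and 413, and 1491 and 760 with DESeq2, 1603 and 803 with no filter, and 535 and 265 in 1 joint fit. GXNI against MIRI had 0 and 3, and 4 and 7 with DESeq2. GXNI against sham had 392 and 226, and 994 and 407 with DESeq2.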
